A study of Homo sapiens with 8 samples.

Results

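Amino acid and related solute carriers are membrane proteins that move amino acids, and some neurotransmitters and osmolytes, across the cell surface and organelle membranes. The carriers described here are the rows of the count table whose symbols belong to the families SLC1, SLC3, SLC6, SLC7, SLC36, SLC38 and SLC43. Each matching symbol was taken whatever its values, but the set was chosen with earlier results of these data known. The carriers number 59 of the 26475 gene symbols in the table and fall into 7 families. The data are RNA-seq of BT474, an established human breast cancer line with amplified ERBB2, in 8 libraries. The genotype label is NPY1R high for 4 of them and NPY1R low for the other 4 (the high and the low libraries), where NPY1R is the gene of the neuropeptide Y receptor Y1. Comparing them shows which carriers vary in expression along with NPY1R. All 8 are the same line, seeded below confluence, and the labels name no drug, dose or time for either group. The labels do not say how high and low cells were separated, nor whether the replicates came from separate cultures, so p-values measure only the spread between these samples.

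SLC1 carriers use the sodium gradient, either to bring glutamate and aspartate into cells or to exchange small neutral amino acids such as serine and glutamine. SLC7 light subunits exchange large neutral or charged amino acids across the membrane, many of them only when bound to the SLC3A2 heavy subunit, also called CD98. SLC38 carriers load cells with glutamine and alanine, SLC6 holds the neurotransmitter, taurine, creatine and broad amino acid carriers, and SLC36 and SLC43 hold proton-coupled and facilitative carriers. In epithelial tumour cells, carriers of glutamine, leucine and arginine are known for feeding protein synthesis and the growth kinase complex mTORC1. The integrated stress response factor ATF4 is known to raise transcription of several carriers when amino acids are short, through a composite DNA element bound by C/EBP and ATF factors.

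The core of that element was searched for in the RefSeq promoter windows, 300 bases around each annotated transcription start in GRCh38.p14, as the 8 letters TGATGNAA on either strand. Windows were found for 44 of the 59 carriers, 66 windows in all. The core was present in 6 of these 66 windows (9.09%), and in 3.62% of all 35116 windows. A match is a description of the letters and not evidence of binding. The palindromic estrogen response element was in 0 of the 66 windows and in 0.057% of all windows. At so rare a share, 0 of 66 does not set the carriers apart. Of the 6 carriers with the ATF core, 5 were expressed enough to test, and the stretches around it are shown because 2 of the 5 are called carriers and the others are abundant carriers that were not called. Each is written 5′ to 3′ in the annotated direction of the gene, with the core, or its reverse complement, in capitals. In a check of windows against transcripts, those of SLC38A1 matched no transcript in either direction, so its direction and start rest on the annotation alone.
SLC1A4, chr2:64989382-64989409, plus strand: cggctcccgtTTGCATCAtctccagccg
SLC1A5, chr19:46784894-46784921, minus strand: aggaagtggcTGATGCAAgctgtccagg
SLC38A1, chr12:46266503-46266530, minus strand: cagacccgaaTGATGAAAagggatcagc
SLC3A2, chr11:62881726-62881748, plus strand: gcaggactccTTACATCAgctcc
SLC7A1, chr13:29595664-29595691, minus strand: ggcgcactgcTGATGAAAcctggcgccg
In SLC7A1 the core starts 8 bases into the transcript that begins at the outer edge of the gene. In SLC1A4, SLC1A5, SLC38A1 and SLC3A2 it lies at an alternative start, 920, 3780, 2527 and 25590 bases downstream of that edge. Which start these cells used cannot be read from counts per gene. As given below, SLC1A4 and SLC1A5 fell in the high libraries, and SLC38A1, SLC3A2 and SLC7A1 did not pass the test.

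Library totals were 18025648 to 30609791 expected counts, the lowest in high replicate 4. NPY1R itself had 699.2 to 1049 CPM (counts relative to library size) in the high libraries and 90.84 to 103.7 CPM in the low libraries, so no library went against its label. All 6 epithelial markers checked (KRT8, KRT18, KRT19, EPCAM, CDH1 and ERBB2) were expressed, summing to 6935 to 9183 CPM over the 8 libraries, and EPCAM was lower in the high libraries (log2 change -0.30, edgeR adjusted p 0.00436). Of the 6 fibroblast markers, COL1A2, DCN and PDGFRB had no count, and the sum of 10.89 to 17.46 CPM in the high libraries, against 10.45 to 17.48 CPM in the low ones was almost all COL1A1. Among the immune markers CD3E had no count, and the sum over the list was 1.432 to 2.268 CPM in the high libraries, against 1.693 to 2.767 CPM in the low ones. The 4 endothelial markers summed to 9.222 to 15.58 CPM in the high libraries, against 13.51 to 18.21 CPM in the low ones, almost all from VWF. Libraries of the same group also differed in a trend with transcript GC content. It was measured by Spearman's rho across genes, between GC content and log2 CPM minus the mean of the library's own group. The rho ran from 0.564 in low replicate 1 to -0.648 in low replicate 4, and was -0.512 in high replicate 3. Being relative to each group's mean, it cannot show a GC difference between the groups. Genes are not independent replicates, so these values describe the libraries only. The part of EPCAM and VWF in the carrier results was not tested. With each library's GC trend removed all 9 carriers called below were called again. That setting called more genes in the whole series, 1146 higher and 1757 lower of 13189 tested. Without it 810 were called higher and 1094 lower of 14008.

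Of the 59 carriers, 32 passed the filter on low counts and were tested, and 9 of these 32 (28.1%) had an edgeR quasi-likelihood adjusted p under 0.05. Over all 14008 tested genes 13.6% passed. Among the carriers 3 were higher in the high libraries (SLC6A14, SLC6A6 and SLC7A8) and 6 lower (SLC1A1, SLC1A2, SLC1A4, SLC1A5, SLC6A3 and SLC6A11), where 5.78% of all tested genes were called higher and 7.81% lower. That overall split moved with the scaling, from 810 higher and 1094 lower to 1009 and 783 with upper-quartile factors. The carriers' split moved too, to 4 higher and 4 lower with median-of-ratios factors, library totals or another TMM reference library, and to 4 higher and 3 lower with upper-quartile factors. The groups did not overlap for 7 of the 32 carriers (3 higher and 4 lower), and for 20.2% of all tested genes. Of the 9 calls, 4 were kept without high replicate 4 or low replicate 2. There were 5 without high replicate 2 or 3 or low replicate 1 or 3, 6 without high replicate 1, and 9 without low replicate 4. Over all tested genes the calls changed too, to 726 higher and 625 lower of 14151 without high replicate 4. They were 707 and 919 of 14127 without low replicate 2, and 1068 and 1064 of 14175 without low replicate 4. The largest carrier changes were -0.87 and 0.46 on the log2 scale, and the median change of the 32 was -0.04, beside -0.03 for all tested genes. In bulk RNA, fewer cells that express a carrier and less of its RNA per cell cannot be told apart.

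**Figure D1:**
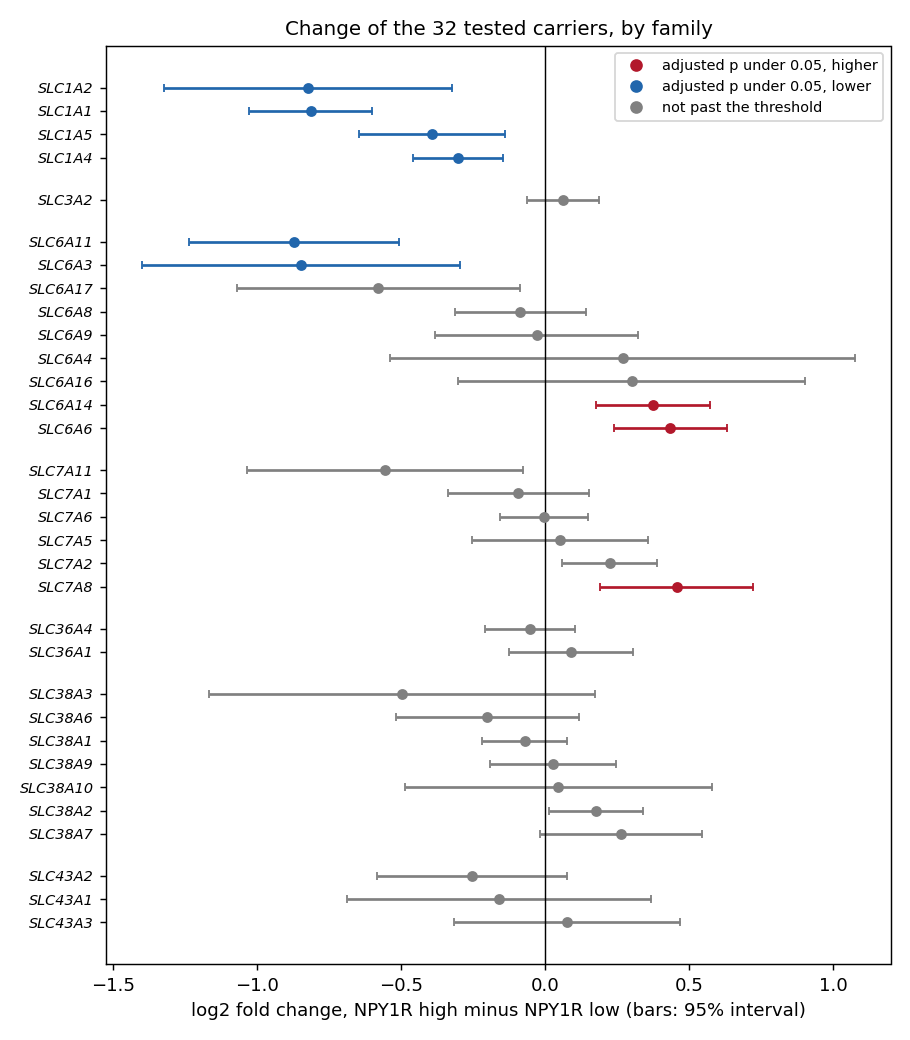
Log2 fold change (NPY1R high minus NPY1R low) of each of the 32 tested carriers with its 95% interval from edgeR, grouped by family, with called carriers in red (higher) or blue (lower) and the others in grey. All 4 tested SLC1 carriers lie left of 0, and the narrow intervals of the abundant SLC38A1 and SLC3A2 include 0.

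The SLC1 family was lower in the high libraries in all of its tested members. Of 7 SLC1 genes, 4 were tested, and 4 of 4 were called lower, with a median log2 change of -0.60. All 4 kept a negative change under each of the 20 alternative settings run, but not their calls. Of the 4 calls, 1 was kept without high replicate 4 or low replicate 1, that of SLC1A1. The number kept was 2 without high replicate 2 or 3 or low replicate 2 or 3, and with upper-quartile factors. The summed level of the family was 215.4 ± 19.23 CPM (SD, n = 4) in the high libraries, against 279.0 ± 25.19 CPM (SD, n = 4) in the low libraries.

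SLC1A1, the sodium-dependent glutamate, aspartate and cysteine carrier EAAT3, had 6.39, 6.284, 7.201 and 6.828 CPM in high replicates 1 to 4, and 11.07, 11.84, 11.71 and 12.29 CPM in low replicates 1 to 4. The low libraries were all above the high ones, with little spread in either group. The log2 fold change was -0.81 (SE 0.0954), a level 1.757-fold higher in the low libraries, with an edgeR adjusted p of 0.000372. The gene lies on chromosome 9 from 4490468 to 4587469 in the RefSeq annotation of GRCh38.p14. Its call held under all 20 alternatives, with adjusted p up to 0.00267.

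SLC1A2, the glutamate carrier EAAT2 best known from astrocytes, had 4.054, 3.942, 3.112 and 4.901 CPM in the high libraries, against 6.006, 5.114, 10.16 and 6.992 CPM in the low ones. The groups did not overlap, but low replicate 3 was well above the other libraries of its group. The log2 fold change was -0.82 (SE 0.2241), with an edgeR adjusted p of 0.0365. SLC1A2 lies on chromosome 11 from 35251205 to 35420507. Its call was lost under 8 of 20 alternatives. These were upper-quartile factors (adjusted p 0.0525), the replicate block (0.0565), and leaving out high replicate 1 (0.0802), 2 (0.0885), 3 (0.117) or 4 (0.0599) or low replicate 1 (0.059) or 3 (0.0819).

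SLC1A4 and SLC1A5 encode the neutral amino acid exchangers ASCT1 and ASCT2, the latter a main glutamine carrier of tumour cells, and they held nearly all SLC1 RNA. SLC1A4 had 112.4, 104.9, 91.19 and 102.8 CPM in the high libraries, against 131.2, 132.9, 122.7 and 119.4 CPM in the low ones, without overlap. Its log2 fold change was -0.30 (SE 0.07001), with an edgeR adjusted p of 0.0181. It lies on chromosome 2 from 64988479 to 65023865. Without high replicate 4 the adjusted p was 0.0753, without low replicate 1 it was 0.0669, and without low replicate 2 it was 0.0506.

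SLC1A5 had 113.9, 101.1, 88.29 and 103.4 CPM in the high libraries, against 151.0, 147.5, 127.9 and 106.8 CPM in the low ones. Low replicate 4 fell within the high range, and the other low libraries were above it. The log2 fold change was -0.39 (SE 0.1141), and the edgeR adjusted p of 0.0488 was just under the threshold. SLC1A5 lies on chromosome 19 from 46774883 to 46788594, and its transcript has a GC content of 61.28%. Its call was lost under 13 of 20 alternatives, with adjusted p of 0.051 to 0.071 under other scalings, filters and limma-voom, and of 0.0885 to 0.148 without high replicate 2, 3 or 4 or low replicate 1, 2 or 3. With each library's GC trend removed its adjusted p was 0.000483 (log2 fold change -0.36), and without low replicate 4 it was 0.00427 (-0.45).

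**Figure D2:**
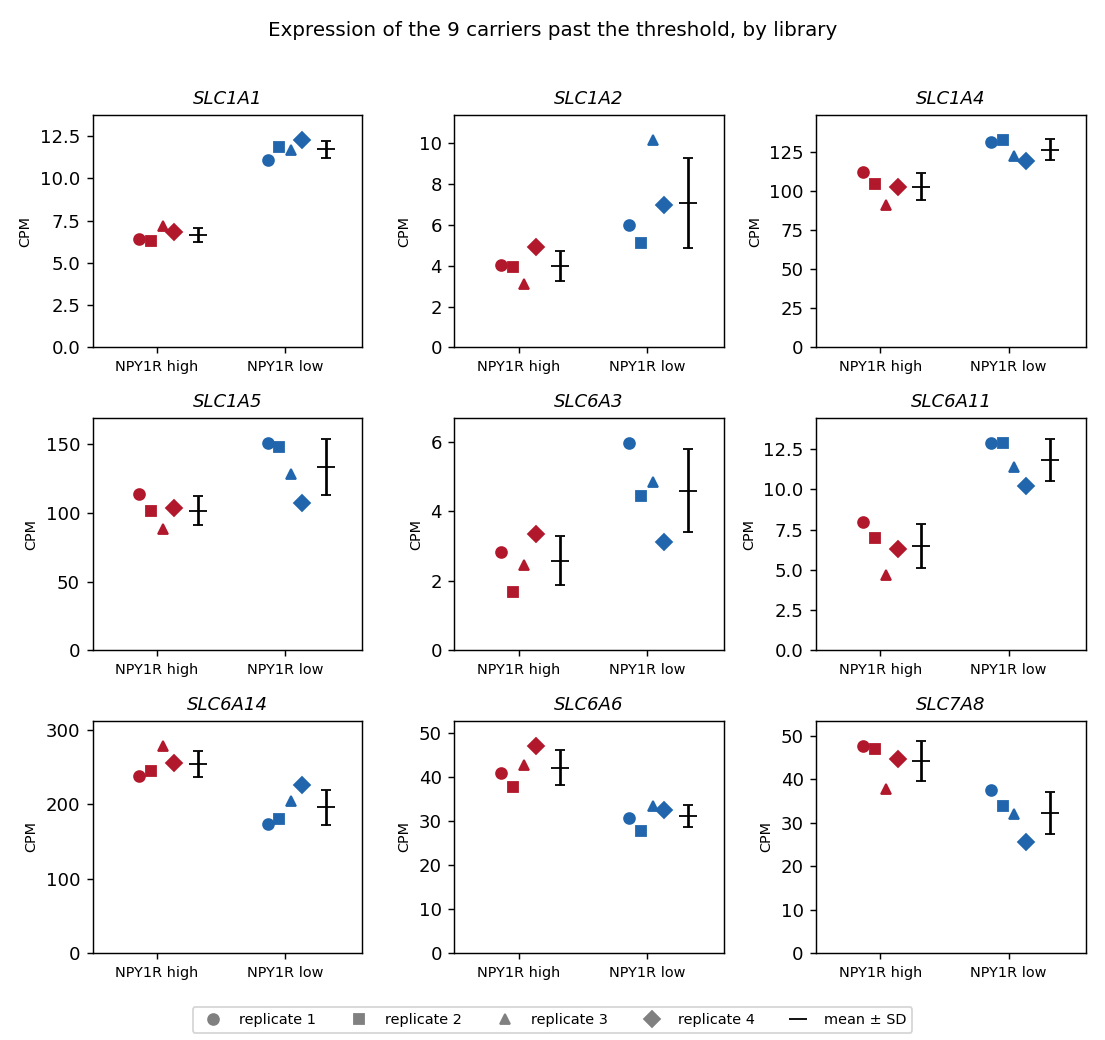
CPM of the 9 called carriers in each library, in NPY1R high (red) and NPY1R low (blue), with marker shape giving the replicate number and black bars the mean ± SD (n = 4 each). Each axis starts at 0, and SLC1A5 and SLC6A3 are the carriers of these 9 whose groups overlap.

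The SLC6 family moved in both directions. Of 19 SLC6 genes, 9 were tested, of which 2 were higher, 2 lower and 5 did not pass. That is 44.4% called, of few genes, beside 13.6% of all tested genes. The summed level was 374.7 ± 16.74 CPM (SD, n = 4) in the high libraries, against 317.3 ± 15.58 CPM in the low libraries (SD, n = 4), most of it SLC6A14.

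SLC6A14 encodes ATB0,+, a sodium- and chloride-driven carrier that concentrates neutral and cationic amino acids and is known as an estrogen-responsive gene in breast cancer cells. It had 237.9, 244.0, 278.7 and 255.6 CPM in the high libraries, against 173.1, 180.1, 203.9 and 225.6 CPM in the low ones. The groups did not overlap, and in both of them replicates 3 and 4 were above replicates 1 and 2. The log2 fold change was 0.38 (SE 0.08846), a 1.298-fold rise, with an edgeR adjusted p of 0.0187. SLC6A14 lies on chromosome X from 116436606 to 116461458. Its adjusted p was 0.0515 without high replicate 3 and 0.0504 without low replicate 2.

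SLC6A6, the taurine and beta-alanine carrier TauT, had 41.12, 37.71, 42.88 and 47.25 CPM in the high libraries, against 30.84, 27.84, 33.54 and 32.64 CPM in the low ones. All high libraries were above all low libraries. The rise was 0.44 on the log2 scale (SE 0.08827, 1.353-fold), with an edgeR adjusted p of 0.00881. It was called under all 20 alternatives, with adjusted p up to 0.0251. The gene lies on chromosome 3 from 14402576 to 14489349, where the annotation of GRIP2 overlaps it. GRIP2 had 11.08 counts in total over the 8 libraries.

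The carriers of neurotransmitter type that were called lower were expressed at a few CPM. SLC6A11, the GABA carrier GAT3, had 7.936, 6.991, 4.668 and 6.277 CPM in the high libraries, against 12.85, 12.89, 11.35 and 10.21 CPM in the low ones. The groups did not overlap. The log2 fold change was -0.87 (SE 0.1631), a level 1.827-fold higher in the low libraries, with an edgeR adjusted p of 0.00584. It was called under all 20 alternatives, and the gene lies on chromosome 3 from 10816228 to 10940714.

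SLC6A3, the dopamine carrier DAT, had 2.817, 1.673, 2.461 and 3.359 CPM in the high libraries, against 5.973, 4.448, 4.85 and 3.103 CPM in the low ones. Low replicate 4 lay below high replicate 4, so the groups overlapped. The log2 fold change was -0.85 (SE 0.2471) with an edgeR adjusted p of 0.049. This call was lost under 15 of 20 alternatives, among them leaving out each library except low replicate 4, where the adjusted p ranged from 0.0577 to 0.151. The gene lies on chromosome 5 from 1392794 to 1445440.

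The other tested SLC6 carriers did not pass. SLC6A8, the creatine carrier and after SLC6A14 the most abundant SLC6 gene here, had 57.77 ± 4.772 CPM in the high libraries, against 61.23 ± 8.072 CPM in the low ones (SD, n = 4 each), with a 95% interval of the log2 change from -0.31 to 0.14. Its near-identical copy SLC6A10P had 14.01 to 38.05 counts per library, and how reads were divided between them is uncertain. The glycine carrier SLC6A9 had 6.931 ± 0.9612 and 7.053 ± 1.219 CPM (SD, n = 4 each), with an interval from -0.38 to 0.32. SLC6A9 overlaps CCDC24 in the annotation, which had 454 counts in total. SLC6A17 (-0.58, adjusted p 0.123), SLC6A16 (0.30) and the serotonin carrier SLC6A4 (0.27) had at most 4.262 CPM in a library.

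SLC3A2, the heavy subunit, did not pass the test, and neither did its most abundant partner SLC7A5. SLC3A2 had 136.6, 126.5, 138.2 and 142.1 CPM in the high libraries, against 135.8, 134.7, 124.1 and 124.9 CPM in the low ones. The groups overlapped, and the log2 change was 0.06 with a 95% interval from -0.06 to 0.19. SLC7A5, the leucine and large neutral amino acid exchanger LAT1, had 206.7, 186.7, 166.4 and 237.7 CPM in the high libraries, against 200.7, 207.4, 214.9 and 144.9 CPM in the low ones. Its lowest and highest libraries lay in different groups, its log2 change was 0.05, and its 95% interval ran from -0.25 to 0.36. The copy SLC7A5P2 had 80.59 to 158.08 counts per library, against 3688.6 to 6017.92 for SLC7A5.

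Of 13 SLC7 genes, 6 were tested and 1 was called (16.7%), near the 13.6% of all tested genes. SLC7A8 encodes LAT2, an exchanger of large and small neutral amino acids that also binds SLC3A2. It had 47.75, 46.97, 37.67 and 44.77 CPM in the high libraries, against 37.48, 33.8, 31.99 and 25.69 CPM in the low ones. The groups met without overlapping, high replicate 3 lying just above low replicate 1. The rise was 0.46 on the log2 scale (SE 0.1195, 1.373-fold), with an edgeR adjusted p of 0.0301. SLC7A8 lies on chromosome 14 from 23125295 to 23183660. The call was lost without high replicate 1 (adjusted p 0.0837), 2 (0.0849) or 4 (0.0579) and without low replicate 2 (0.051) or 3 (0.0803).

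Per kilobase of transcript, SLC3A2 had 62.86 ± 3.076 CPM in the high libraries, against 60.1 ± 2.881 CPM in the low ones, close to the summed level of its light subunits SLC7A5, SLC7A6, SLC7A7, SLC7A8, SLC7A10 and SLC7A11, at 67.83 ± 8.162 and 63.71 ± 7.167 CPM per kilobase (SD, n = 4 each). SLC7A8 made up 16.09%, 16.97%, 15.42% and 13.73% of that sum in high replicates 1 to 4, and 13.37%, 12.14%, 10.97% and 11.46% in low replicates 1 to 4. SLC7A5 made up 64.61% ± 2.247 and 66.08% ± 4.16 (SD, n = 4 each). These shares are of RNA per transcript length and were not tested.

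**Figure D3:**
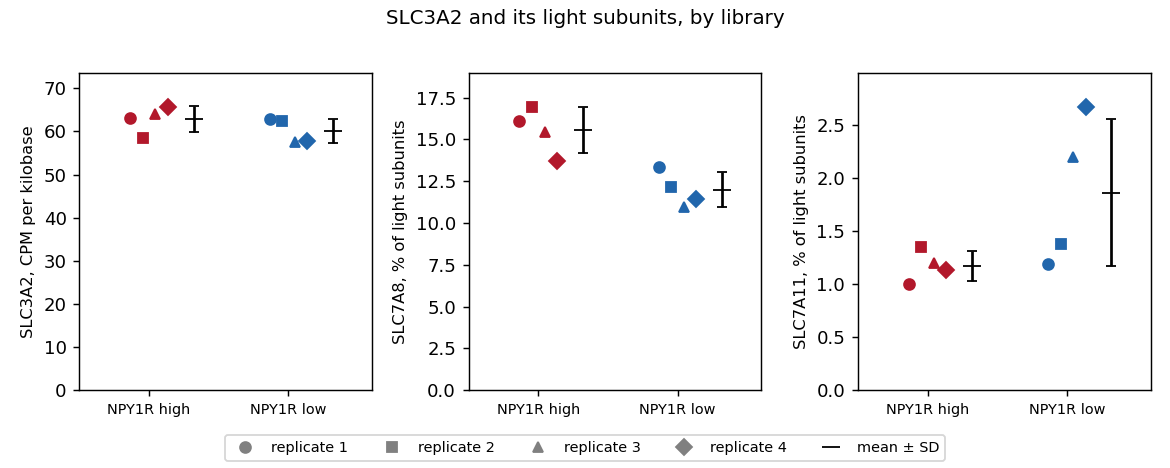
SLC3A2 in CPM per kilobase of transcript (left), and SLC7A8 (middle) and SLC7A11 (right) as a percentage of the summed CPM per kilobase of 6 light subunits, per library with the mean ± SD (n = 4 each). The SLC7A8 share is 13.73% to 16.97% in NPY1R high and 10.97% to 13.37% in NPY1R low, and the SLC7A11 share is highest in NPY1R low replicates 3 and 4.

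SLC7A11, the cystine and glutamate exchanger xCT that supplies cysteine for glutathione, had 6.802, 8.516, 6.694 and 8.48 CPM in the high libraries, against 7.651, 8.791, 14.69 and 13.71 CPM in the low ones. Low replicates 1 and 2 lay near the high libraries, and replicates 3 and 4 lay above all others. The log2 change was -0.55 (SE 0.2147) with an edgeR adjusted p of 0.129. It was -0.11 between the groups within replicates 1 and 2, and -0.91 within replicates 3 and 4, on log2 CPM. SLC7A11 has a transcript GC content of 35.4%, and with the GC trend removed its adjusted p was 0.0468.

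SLC7A1 and SLC7A2 encode the cationic carriers CAT1 and CAT2, which bring in arginine and lysine. SLC7A2 had 162.5, 162.1, 138.0 and 143.9 CPM in the high libraries, against 132.8, 141.8, 124.2 and 120.3 CPM in the low ones. A single pair overlapped, high replicate 3 and low replicate 2, and the log2 change of 0.22 had an edgeR adjusted p of 0.0782. It was called higher under 11 of 20 alternatives, among them each of the other scalings, DESeq2 and the replicate block. SLC7A1 had 63.81 ± 9.225 and 68.0 ± 6.179 CPM (SD, n = 4 each), with an interval from -0.34 to 0.15. SLC7A6 (y+LAT2, exchanging cationic for neutral amino acids) had 78.63 ± 4.805 and 78.79 ± 5.702 CPM (SD, n = 4 each), with an interval from -0.16 to 0.15. It overlaps SLC7A6OS in the annotation, and the strand setting of the counting is not given in the sources used here, so reads from such pairs may not have been told apart.

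The SLC38 family was by far the most abundant, and 0 of its 7 tested members of 11 passed the adjusted threshold of edgeR, with 1 at an unadjusted p under 0.05. With 13.6% of all tested genes passing, 0 of 7 does not set the family apart. SLC38A1, the sodium-coupled glutamine carrier SNAT1, had 1109, 1135, 1061 and 1080 CPM in the high libraries, against 1071, 1079, 1182 and 1272 CPM in the low ones. Its groups overlapped, and the 95% interval of the log2 change ran from -0.22 to 0.08. SLC38A2, the adaptive SNAT2 that responds to amino acid shortage, had 594.9, 607.1, 654.5 and 594.6 CPM in the high libraries, against 492.1, 509.0, 560.7 and 607.0 CPM in the low ones. Low replicate 4 alone reached the high range. The log2 change was 0.18 (SE 0.07268), with an edgeR adjusted p of 0.154. It passed without low replicate 4 (adjusted p 0.0239), with the GC trend removed (0.0141), and when replicates 1 and 2 were modelled apart from 3 and 4 (0.0422). Removing the GC trend and splitting the replicates also raised the number of calls over all genes.

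The lysosomal SLC38A9, which reports arginine to mTORC1, had 15.6 ± 1.696 CPM in the high libraries, against 15.31 ± 0.7103 CPM in the low ones (SD, n = 4 each), with an interval from -0.19 to 0.25. SLC38A7, a lysosomal glutamine exporter, had 12.38 ± 1.465 and 10.28 ± 1.249 CPM (SD, n = 4 each), differing by 0.26 on the log2 scale with an edgeR adjusted p of 0.217. It was called with the GC trend removed, with or without the replicate block. SLC38A3 (-0.50), SLC38A6 (-0.20) and SLC38A10 (0.05) did not pass either. SLC38A6 overlaps TRMT5 in the annotation.

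In SLC36, SLC36A4 had 40.23 ± 2.875 and 41.72 ± 1.662 CPM and SLC36A1 had 10.22 ± 0.6759 and 9.607 ± 0.5424 CPM in the high and the low libraries (SD, n = 4 each). Their intervals were -0.21 to 0.10 and -0.12 to 0.30. In SLC43, the leucine carrier SLC43A2 (LAT4) had 11.51, 10.11, 9.662 and 10.9 CPM in the high libraries, against 13.93, 14.71, 12.45 and 9.152 CPM in the low ones. The first 3 low libraries were above all high libraries, and replicate 4 was below them. Its log2 change was -0.25 with an edgeR adjusted p of 0.328, and -0.34 with an adjusted p of 0.0463 without low replicate 4. SLC43A1 (LAT3) and SLC43A3 had changes of -0.16 and 0.08.

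Ranked by CPM per kilobase of transcript over all libraries, SLC38A1 (139.3) and SLC38A2 (118.1) led, followed by SLC3A2 (61.47), SLC6A14 (49.75), SLC7A5 (43.13), SLC1A5 (40.76), SLC1A4 (25.14) and SLC7A2 (18.42). SLC6A14, SLC7A5 and SLC1A5 lay close together. SLC6A14 had the highest level of these in the high libraries, at 56.21 ± 3.984 against 43.95 ± 6.701 for SLC7A5 and 35.27 ± 3.646 for SLC1A5 (CPM per kilobase, SD, n = 4 each). In the low libraries the same carriers had 43.29 ± 5.29, 42.32 ± 7.036 and 46.26 ± 7.07 CPM per kilobase (SD, n = 4 each), differing by less than their spread. The called carriers SLC1A1, SLC6A11, SLC6A3 and SLC1A2 were at 2.473, 2.129, 0.911 and 0.4597 CPM per kilobase, far below the main carriers.

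**Figure D4:**
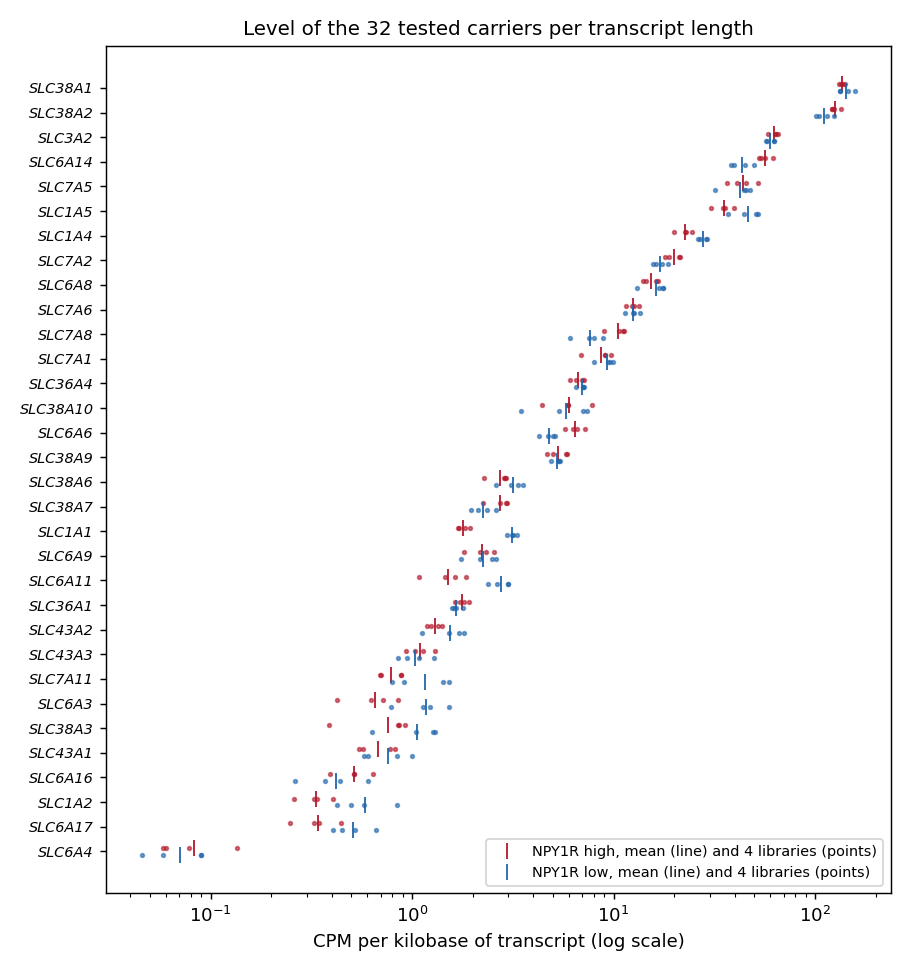
CPM per kilobase of transcript (log axis) of the 32 tested carriers in order of their mean over all libraries, with points for the 4 libraries of each group and a line for the group mean. SLC38A1 and SLC38A2 lie above 100, and SLC6A4 is the lowest at 0.0769.

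The other 27 carriers did not pass the filter on low counts. Of these, 10 had no count in any library, among them SLC1A7, SLC36A2, SLC38A8, SLC38A11, SLC6A2, SLC6A5, SLC6A7, SLC6A18 and SLC7A3. A count of 0 in a library allows up to 3 counts, and covers counting error only. The other 17 had 1 to 51 counts in total. They include SLC3A1, the heavy subunit rBAT, with 48.77 expected counts in total, and its partner SLC7A9, with 39. SLC3A1 overlaps PREPL in the annotation, which had 22601.23 counts in total, and how shared reads were divided is uncertain. SLC6A19, a neutral amino acid carrier of gut and kidney, had 0 counts in all high libraries and 4, 6, 2 and 1 in the low libraries, and was picked out after its values were seen. That is too few to test.

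Genes that respond to amino acid shortage, sense amino acids or use them were counted from 5 lists, as context for the carriers. Of the 26 genes of the amino acid starvation response, most of them known ATF4 targets, 25 were tested, 2 were higher and 5 lower (28%, beside 13.6% of all tested genes), with a median log2 change of -0.11. TRIB3, a pseudokinase induced by ATF4, fell from 149.2 ± 3.502 CPM in the low libraries to 110.0 ± 7.514 CPM in the high libraries (SD, n = 4 each), a log2 change of -0.44. PSAT1 (-0.25) and PHGDH (-0.30), enzymes of serine synthesis, fell with it. So did MTHFD2 (-0.27) and ALDH18A1 (-0.21, edgeR adjusted p 0.0487), named after their values were seen and not followed singly under the alternatives. ATF4 itself had 330.4 ± 33.41 CPM in the high libraries, against 340.1 ± 35.52 CPM in the low ones (SD, n = 4 each). Its edgeR adjusted p was 0.84. ASNS (-0.30), DDIT3 (-0.09), CHAC1 (-0.44) and ATF3 (0.32) did not pass either and, like ATF4, were named after their values were seen. Of the 25 tested genes, 18 did not pass. STC2 rose by 0.99, from 60.52 ± 2.779 to 120.5 ± 12.07 CPM (SD, n = 4 each). It is a secreted glycoprotein known both as an ATF4 target and as an estrogen-responsive gene in breast cells. EIF2AK4, the kinase GCN2 that senses uncharged tRNA, rose by 0.18. The count of 5 lower depended on the settings and ranged from 2 to 9. Calls were lost under 8 of 20 alternatives for EIF2AK4 (edgeR, limma or DESeq2 adjusted p up to 0.114), 5 for PHGDH (up to 0.0709), and 1 each for TRIB3 (0.0571 with the GC trend removed) and PSAT1 (0.0572 without high replicate 4).

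Of the 47 amino acid enzymes, 38 were tested, 2 were higher and 8 lower (26.3%, beside 13.6% of all tested genes). The median log2 change was -0.07, and PHGDH, PSAT1 and ALDH18A1 are counted here as well as among the starvation genes. ASS1, argininosuccinate synthase of the arginine cycle, fell from 33.46 ± 0.6511 to 10.27 ± 0.8429 CPM (SD, n = 4 each), which is -1.70 on the log2 scale with an edgeR adjusted p of 1.58e-06. OAT, ornithine aminotransferase, fell by 1.11 and ODC1, ornithine decarboxylase of polyamine synthesis, by 0.60 on the log2 scale. These 3 calls held under all 20 alternatives, though ASS1 and OAT have processed pseudogenes and how shared reads were divided is uncertain. GLUL, glutamine synthetase, rose by 0.36 (adjusted p 0.0521 without low replicate 1, by edgeR) and AMD1, of polyamine synthesis, by 0.20, a call lost under 5 of 20 alternatives.

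Of the 38 genes of mTORC1 amino acid sensing, 38 were tested and 1 passed (2.63%, beside 13.6% of all tested genes), with a median change of 0.01. That gene was SESN3, a sestrin that restrains mTORC1, which rose by 0.74 from 12.02 ± 2.673 to 20.06 ± 3.209 CPM (SD, n = 4 each). Of the 20 cytosolic tRNA synthetases 1 passed, WARS, which fell by 0.29 (adjusted p up to 0.0777 over the alternatives), and the median was -0.08. Of 15 tested amino acid carriers of other families (SLC15, SLC16 and SLC25 members and the lysosomal CTNS, PQLC2 and MFSD12), 0 of the 15 passed by edgeR, with 3 at an unadjusted p under 0.05. Of the same 15, up to 1 in each direction passed under the alternatives.

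**Figure D5:**
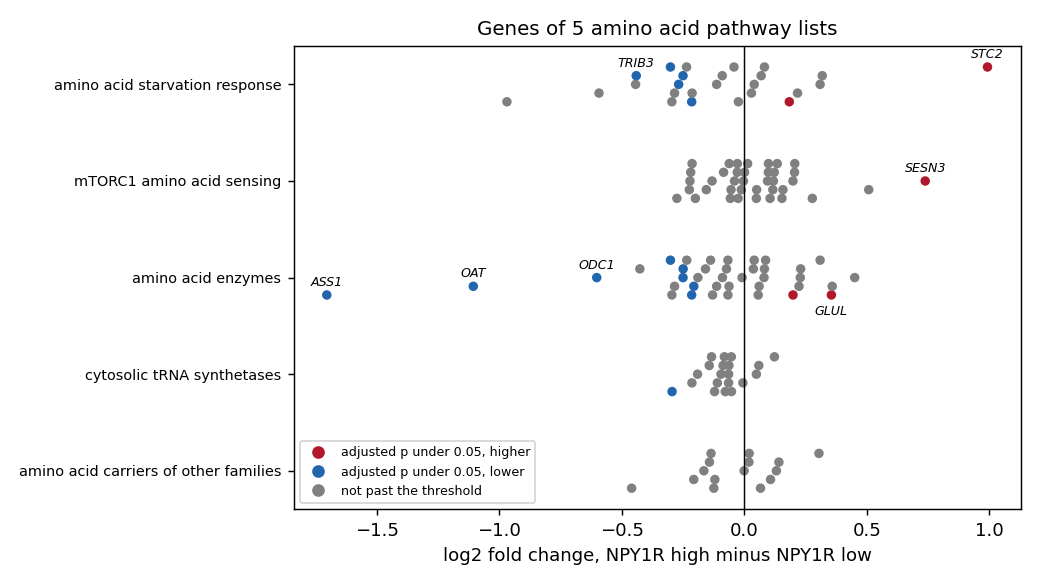
Log2 fold change (NPY1R high minus NPY1R low) of each tested gene in 5 lists, with called genes in red (higher) or blue (lower), others in grey, and 7 genes labelled. ASS1 at -1.70 lies farthest to the left and STC2 at 0.99 farthest to the right, and most genes of mTORC1 sensing and the tRNA synthetases lie close to 0.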

How the data were processed

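The authors deposited expected counts (estimates that need not be whole) per gene symbol for 8 libraries, with 7.97% to 8.76% of values not whole and no scaling between libraries. RSEM 1.3.0, STAR 2.5.2 and the build hg38 are named in the submitters' processing notes, with no role or order, and the annotation is not given in the sources used here. The labels' protocols name a stranded kit and an input of 200 ng. The single-sample tables held the same values (0 differing), and 0 columns belonged to no sample.

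Counts were rounded, filtered with filterByExpr (minimum count 10), which left 14008 of 26475 genes, and scaled by trimmed means (TMM). CPM values use these scaled library sizes. The 2 groups were compared by edgeR 4.0.16 (quasi-likelihood test, no covariate, R 4.3.3), with Benjamini-Hochberg adjustment over all tested genes and a threshold of 0.05. SE is the fold change over the root of F. Within-replicate differences use log2 CPM with a prior count of 2. The test was checked on simulated data. It recovered 90 of 200 genes changed by 0.5 on the log2 scale and 177 of 200 changed by 1. It also called 4 and 11 unchanged genes. A carrier that did not pass may therefore still differ, within its own 95% interval. A log2 change of 0.5 lay outside that interval for SLC3A2 (-0.06 to 0.19) and inside it for SLC38A10 (-0.49 to 0.58). Within a group, library pairs had a chi-square of 5.75 to 62.25 for each degree of freedom, more than sampling noise gives.

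Alternatives were other scalings, another TMM reference, other filters, DESeq2 1.42.0, limma-voom (limma 3.58.1), a replicate block, a GC offset (spline with 5 degrees of freedom on transcript GC, known for 94.2% of tested genes), a term splitting replicates 1 and 2 from 3 and 4, and leaving out each library. Transcript length and GC are those of the APPRIS principal transcript in GENCODE release 29, the longest where several qualify. Promoter windows and gene positions are from RefSeq (GRCh38.p14). Windows were checked against transcripts, with 11 of 14 matching in the gene's direction and 0 in reverse. The windows of SLC38A1 were among those that did not match.

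The carriers and lists were chosen with earlier results of these data known. Named genes were the carriers past the threshold, SLC3A2, SLC7A5, SLC7A11, SLC1A5 and SLC38A2, the most abundant carrier of each family, and the 3 smallest p in each direction of each list. Other carriers are given to account for every member.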

Additional observations from a re-analysis of the deposited data

Results flagged for a closer look

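Among 64 group values of the 32 tested carriers, 2 had a library far from the rest of its group, where chance gives about 3.2 (1 in 20 groups). SLC38A3, a glutamine carrier, had 1.158 CPM in NPY1R high replicate 3 and 2.533 to 2.752 CPM in the remaining libraries of that group, a gap of 0.863 of the group's range. SLC38A6 had 3.855 CPM in NPY1R high replicate 4 and 4.844 to 4.957 CPM in the remaining ones, a gap of 0.897 of the range. Both gaps exceed Dixon's critical value for 4 samples, and neither carrier passed the test between groups.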

How the results depend on the processing

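Over 20 alternatives, 16 named carriers gave 320 adjusted p-values, of which 262 changed neither sign nor call, 46 lost the call, 7 gained one and 5 changed sign. SLC1A1, SLC6A11 and SLC6A6 kept their calls in all 20. Changes of sign were in carriers not called. They were SLC7A5 without NPY1R high replicate 4 (adjusted p 0.995) or NPY1R low replicate 4 (0.898), SLC38A1 without NPY1R low replicate 4 (0.888), and SLC36A4 with upper-quartile factors (0.995) or without NPY1R high replicate 4 (0.888). Leaving out each library in turn, adjusted p ranged over 0.556 to 0.995 for SLC7A5, 0.585 to 0.995 for SLC36A4 and 0.462 to 0.921 for SLC38A1. The causes were not tested.

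Carriers called higher (3) became 4 with other scalings, another TMM reference, other filters, DESeq2 or the replicate block. They became 5 with the GC offset, 6 with the replicate block and GC offset, 5 with the term for replicates 1 and 2 against 3 and 4, and 1 to 4 leaving out a library. Calls over all tested genes rose too with the GC offset, the block with GC offset and the replicate term. In that order they went from 810 higher and 1094 lower to 1146 and 1757, 1332 and 1978, and 1205 and 1681. Leaving out a library gave 624 to 1068 higher and 625 to 1064 lower over all genes. Carriers called lower (6) became 4 with median-of-ratios factors, library totals, another TMM reference, other filters, limma-voom or the replicate block. They became 3 with upper-quartile factors, 7 with the GC offset with or without the block, and 2 to 7 leaving out a library. The replicate block alone kept 7 of the 9 calls, losing SLC1A2 and SLC6A3 and adding SLC7A2, with 805 higher and 1028 lower over all genes. Deviations of same-numbered libraries correlated at 0.339, 0.157, 0.0907 and 0.0178 for replicates 1 to 4. Differently numbered libraries were not compared, so these values cannot show whether the numbers pair the samples. The suffixes in the library names alternate low and high in the order of the replicate numbers. The main test used no pairing.

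For the lists, some smaller changes in the counts are not given. Starvation genes called higher (2) became 1 with the block and 1 to 2 leaving out a library. Those called lower (5) became 3 with upper-quartile factors, library totals, another TMM reference or no filter, 9 with block and GC offset or with the replicate term, and 2 to 4 leaving out a library. Sensing genes called higher (1) became 2 with library totals, the 1 CPM filter, DESeq2, GC offset, block with GC offset or the replicate term, and stayed at 1 leaving out a library. Those called lower (0) became 2 with GC offset, 3 with block and GC offset or the replicate term, and 0 to 1 leaving out a library. Enzymes called higher (2) became 4 with DESeq2, GC offset, block with GC offset or the replicate term, 1 with the block, and 0 to 4 leaving out a library. Enzymes called lower (8) became 5 with no filter and 6 with other scalings, another TMM reference, the 1 CPM filter or DESeq2. They became 11 with GC offset or the replicate term, 13 with block and GC offset, and 4 to 9 leaving out a library. Synthetases called higher (0) became 1 with the 1 CPM filter and 0 leaving out a library. Those called lower (1) became 2 with GC offset, 3 with block and GC offset or the replicate term, and 0 to 2 leaving out a library. Carriers of other families called higher (0) became 1 with block and GC offset or the replicate term, and 0 to 1 leaving out a library. Those called lower (0) became 1 with GC offset, block with GC offset or the replicate term, and 0 leaving out a library.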
